A study of Mus musculus with 8 samples.

Results

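Sense intronic transcripts are long noncoding RNAs annotated inside an intron of another gene, the host gene, and on the same strand as it. The FPKM values (fragments per kilobase, a level corrected for transcript length and depth) of the mouse brain cortex hold 61 genes of the annotated class sense_intronic among 13996 genes of all classes, and these 61 were taken as the members. Each was placed in a host gene by its position on the mouse genome build GRCm38, and 58 of them have their host among the measured genes, in 50 different hosts. The question was how the members and their hosts differed between the diets, and whether a member moved with its host.

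The mice were male C57BL/6 mice obtained at 8 weeks of age. For 8 weeks, 4 were kept on a normal diet and 4 on a high fat diet with 60% fat by weight, and the cortex of all 8 was taken at 16 weeks of age. No genetic change was made in either group, and 1 library of rRNA-depleted total RNA was made from each mouse. The study describes the second group as heavier and impaired in glucose tolerance, so the diet cannot be told apart from the change in body weight.

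An intron is removed from the primary transcript in the nucleus and is normally taken apart quickly after its lariat is opened. Noncoding RNA annotated within an intron can be a transcript of its own, with its own start and end, or a stretch of the host's intron that lasts long enough to be cloned. Libraries from total RNA, which are not selected for a poly(A) tail, also carry fragments of unspliced host RNA. These have the strand and the bases of the member, so FPKM cannot tell them apart from the member's own RNA, and in bulk tissue fewer cells of a type cannot be told apart from less RNA per cell.

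All 61 members carried the same class in the annotation used here, and 60 lay in a protein-coding host. A single exon was annotated for 38 members, 2 exons for 19 and 3 exons for 4. The exonic length ranged from 336 to 4725 bases with a median of 1434, and the GC content from 32.2% to 62.6% with a median of 42.7%. The intron around a member, read from the longest coding model of the host, had a median length of 38861.5 bases over 56 members. It ran from 1227 bases to 1244595 bases, and 20 members lay in introns of over 100 kb. Intron 1 of the host held 15 of the 56. Only 2 members shared bases with an annotated host exon, RP23-116A10.3 in Sergef with 62.1% of its bases and RP23-338G5.4 in Cebpg with 21.7%. Another 6 members overlapped an exon of a gene on the other strand.

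The 3′ ends of members that rose on the high fat diet are printed to show which hold a polyadenylation signal and which do not. The canonical polyadenylation signal AATAAA, searched on the transcript strand only and without its variants, marks the place where the 3′ end of most mRNAs is made. Of the 19 members that passed the test described further on, 5 had the signal within their last 50 bases. It began 9 bases from the end in RP23-267O21.3 and 39 in RP23-96M8.1, and whether it is used was not tested. These are the last 60 bases of the 5 on GRCm38, with the signal in capitals.
RP24-84B10.1 in Farp1, chr14:121253912-121253971, plus strand: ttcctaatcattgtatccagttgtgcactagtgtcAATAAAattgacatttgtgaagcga
RP23-58D1.2 in Anks1b, chr10:90736271-90736330, plus strand: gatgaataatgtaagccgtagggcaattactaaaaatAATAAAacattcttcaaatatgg
RP23-96M8.1 in Ntm, chr9:29590484-29590543, minus strand: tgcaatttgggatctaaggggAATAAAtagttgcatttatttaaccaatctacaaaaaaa
RP24-125L17.1 in Nlgn1, chr3:25695195-25695254, minus strand: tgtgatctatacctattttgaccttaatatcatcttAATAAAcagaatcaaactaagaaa
RP23-267O21.3 in Man1a2, chr3:100627297-100627356, minus strand: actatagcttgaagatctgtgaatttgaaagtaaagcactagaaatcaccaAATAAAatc

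The 5 members within Frmd4a have a single exon each and none has the signal in this window. Their last 60 bases are shown because all 5 rose while the mRNA around them did not.
RP23-74F20.2, chr2:4094430-4094489, plus strand: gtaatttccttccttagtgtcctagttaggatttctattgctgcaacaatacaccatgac
RP23-74F20.3, chr2:4106879-4106938, plus strand: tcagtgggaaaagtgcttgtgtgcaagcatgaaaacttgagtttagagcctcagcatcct
RP23-416H10.5, chr2:4142568-4142627, plus strand: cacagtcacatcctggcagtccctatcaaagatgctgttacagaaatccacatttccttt
RP23-416H10.6, chr2:4180602-4180661, plus strand: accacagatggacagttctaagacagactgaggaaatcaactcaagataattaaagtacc
RP23-416H10.7, chr2:4219294-4219353, plus strand: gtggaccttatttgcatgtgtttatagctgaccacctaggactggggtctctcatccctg

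The member within Opcml, RP24-456J10.1, has 3 exons, so its annotation rests on splice junctions that the unspliced intron of the host does not contain. Its junctions are shown as the last 15 bases of one exon in lower case and the first 15 bases of the next in capitals.
RP24-456J10.1, exon 1 to exon 2, chr9:28198047 to chr9:28198674, plus strand: aggacaagaacagagGCTTTTCTTCTCTCT
RP24-456J10.1, exon 2 to exon 3, chr9:28198817 to chr9:28199063, plus strand: gctgacaaagggatgAAGGAGTTGTTATTT

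Among the members with a sequence, 16 of 61 (26.2%) held the signal within the last 50 bases. The share was 21.3% for TEC genes, a class of mostly single-exon models still to be experimentally checked. It was 47.1% for lincRNAs, the noncoding RNAs between genes, 44.9% for antisense genes, 52.7% for processed transcripts and 60.4% for mRNAs. The sense intronic members thus stood beside the TEC genes and below the other classes. A signal did not separate the members by diet effect, since 5 of 16 tested members with it and 14 of 44 without it passed the test. By that test, 17.7% of all genes were called higher on the high fat diet. A run rich in A, here at least 50% A in the last 20 bases, was present in 23.0% of the members, 23.2% of TEC genes and 24.9% of mRNAs. Such a run within the genome can prime cDNA synthesis in the cloning from which annotated models were made.

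Expression of the members was low. Their mean FPKM over the 8 mice had a median of 1.52, against 9.78 over all genes, and 42 of the 61 lay under 2. The values are rounded to 0.1, so 1 step is a large part of a level near 1. Only 3 members exceeded 5 FPKM. Peg13, an imprinted RNA expressed from the paternal allele, had the highest mean with 56.2, followed by RP24-84B10.1 with 13.2. The number of reads behind an FPKM value is unknown.

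The diets were compared on log2(FPKM + 0.1) with limma, a linear model fitted here to 13982 genes, followed by Benjamini-Hochberg adjustment over all of them. A gene passed the test at an adjusted p below 0.05, and a log2 fold change is the high fat diet minus the normal diet on that scale, which understates the change of low genes. The test covered 60 members, because RP23-333I5.1 in Magi3, which encodes a scaffold protein of cell contacts, had a mean FPKM under the minimum of 1. Its FPKM was 0.9, 0.8, 0.7 and 0.7 in the normal diet mice and 0.9, 1.4, 1.2 and 1.3 in the high fat diet mice. The groups met at 0.9.

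Of the 60 tested members, 19 rose on the high fat diet and 0 fell. Over all genes, 17.7% were called higher, 15.3% lower and 33.1% either way. At an unadjusted p under 0.05 by limma, 27 members were higher and 0 lower, and of all genes 23.1% were higher and 21.2% lower. The median log2 fold change of the tested members was 0.37, with quartiles of 0.10 and 0.59, while that of all genes was 0.003. A total of 52 members lay above 0 and 8 below. With a minimum change of 40%, the limit the study used for lncRNAs, 15 members were counted as higher, where 6.39% of all genes were. The 4 values of one diet lay wholly above the 4 of the other in 18 members, each of them higher on the high fat diet. Over all genes the groups were apart in 31.9%, with the high fat diet higher in 17.2%. Low genes of any class, those of a mean FPKM under 3, the range that holds 53 of the 61 members, were called higher in 14.8% of cases and had a median of 0.05.

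**Figure D1:**
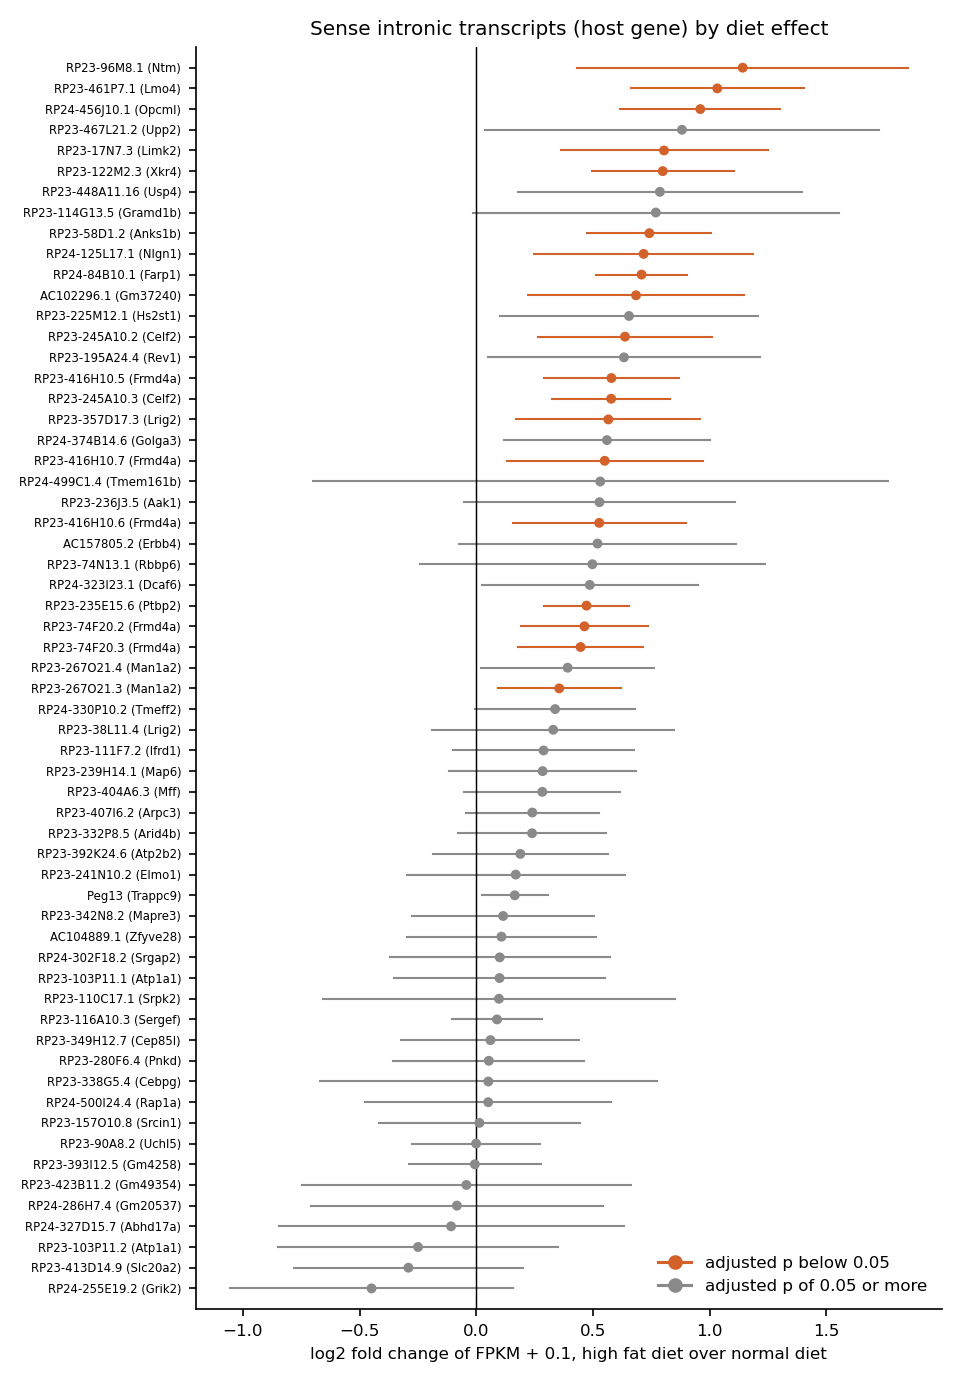
Log2 fold change of FPKM + 0.1 (high fat diet over normal diet) of the 60 tested sense intronic transcripts, with the host gene in brackets, ordered by size. Points are the estimates of limma from 4 mice a diet and bars the 95% confidence intervals. The 19 members past the threshold, in orange, all lie above 0.

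By annotated class, the TEC genes had the share of higher calls and the median furthest above those of all genes, with 245 of 480 higher, 5 lower and a median log2 fold change of 0.49. For lincRNAs these were 62 of 260, 14 and 0.20, for antisense genes 21 of 149, 4 and 0.11, and for processed transcripts 23 of 132, 9 and 0.13. Among 12519 mRNAs, 2062 were higher and 2097 lower, with a median of −0.01. The sense intronic members therefore lay between the TEC genes and the lincRNAs in both measures, and these classes differ in level and length as well. None of these shares was tested against another.

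A mouse can be summarised by the median over members of its log2 value relative to the normal diet mean. This was 0.03, −0.09, 0.005 and 0.09 in the normal diet mice and 0.35, 0.51, 0.32 and 0.48 in the high fat diet mice. The groups did not overlap. Of the 60 tested members, 51 had their highest FPKM in a high fat diet mouse, 23 of them in high fat diet mouse 2. This was also the mouse with the lowest sum of FPKM over all genes, 562431, where the highest was 639142. Without mouse 2 of the high fat diet, 10 members passed by limma, 9 of them among the 19, and 12.9% of all genes were called higher. All 19 kept a log2 fold change above 0 in that fit, with a median of 0.57 against 0.64 with all mice. They had been chosen as higher in the same mice, which favours this. Over the 60 tested members, 51 lay above 0 without that mouse, with a median of 0.34.

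Libraries of the normal diet stood apart in RNA of other brain regions. Cerebellar markers were mostly genes of granule and Purkinje neurons, and Calb2 was also among the thalamic markers. Of the 15, 11 were in the table, with Gabra6 and Cnpy1 at 0 in at least 1 high fat diet mouse. The summed FPKM of the 11 was 40.1 to 504.1 on the normal diet and 29.2 to 36.9 on the high fat diet. Their mean log2 level was highest in normal diet mice 2 and 3, at 4.68 and 5.10, against 1.40 and 3.19 in mice 1 and 4. Striatal markers (11 of 15 in the table) summed to 256.4 to 470.6 and 83.7 to 92.3 FPKM, and thalamic markers (10 of 10) to 80 to 215.8 and 55.6 to 66.7, with Shox2 at 0 in at least 1 high fat diet mouse. Markers of cortical projection neurons, all 12 in the table, were higher on the high fat diet, with 396.6 to 572.4 against 624.8 to 734.9 FPKM. The passing counts were 6 lower of 9 tested cerebellar, 11 of 11 striatal, 4 of 9 thalamic and 11 of 11 oligodendrocyte markers, and 8 higher of 12 projection neuron markers.

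Among the other cell types, blood and endothelial markers had 6 lower of 9, and choroid plexus and ependymal markers 5 lower of 8. The latter list summed to 351.9 to 744.4 FPKM on the normal diet and 25.5 to 951.5 on the high fat diet. Its mean log2 level was 2.65 in high fat diet mouse 4 and 0.44 to 0.88 in the other high fat diet mice. Astrocyte markers had 1 higher and 3 lower of 9, and microglial markers 1 higher of 9. Oligodendrocyte precursor markers had 2 higher and 3 lower of 7. The microglial, oligodendrocyte precursor and choroid plexus lists did not pass the exact permutation test of their mean log2 level between diets (adjusted p from 0.0623 to 0.743 over 12 lists), and the other cell type and region lists did (adjusted p = 0.0381). When the cerebellar marker level of each mouse was added to the fit, 1 member passed by limma, RP24-84B10.1, and 3.33% of all genes were called higher. The median log2 fold change was then 0.36, with 51 of 60 members above 0, and the median standard error of the members rose from 0.18 to 0.29. Without normal diet mice 2 and 3, a choice made after seeing the marker levels, 11 members passed and 10.9% of all genes were called higher. The median was 0.31, with 51 of 60 members above 0. The 19, chosen as higher with those mice included, all stayed above 0. That fit did not remove the striatal difference, since normal diet mice 1 and 4 had mean log2 striatal marker levels of 4.79 and 3.90. The high fat diet mice had 1.92 to 2.09. The part of the other regions in the results was not otherwise tested.

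Opcml and Ntm encode neighbouring members of the IgLON family, which are attached to the neuronal membrane by a lipid anchor. RP24-456J10.1, in intron 1 of Opcml, had FPKM of 1.8, 1.3, 1.1 and 1.6 in the normal diet mice and 3.1, 2.6, 2.8 and 3.0 in the high fat diet mice. Every high fat diet mouse was above every normal diet mouse. The means were 1.45 ± 0.31 and 2.88 ± 0.22 (SD, n = 4), and limma gave a log2 fold change of 0.96 ± 0.15 (SE) with an adjusted p of 0.00226. With the cerebellar marker level in the fit it was 0.51 (adjusted p = 0.107 by limma). The FPKM of Opcml itself was 45.2, 36.7, 35.7 and 49.1 on the normal diet and 47.3, 51.1, 55.1 and 47.7 on the high fat diet, with overlapping groups and a log2 fold change of 0.28 (adjusted p = 0.0621 by limma). The member therefore went from 3.47% of the host's level to 5.75%, both per length, and this ratio did not overlap between diets.

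RP23-96M8.1, in intron 1 of Ntm, had the largest log2 fold change of the members tested. FPKM was 1.3, 0.5, 0.4 and 0.9 on the normal diet and 1.3, 2.1, 1.6 and 1.8 on the high fat diet. The lowest high fat diet mouse equalled the highest normal diet mouse, and the 2 lowest values were those of normal diet mice 2 and 3. The log2 fold change was 1.14 ± 0.32 (SE, adjusted p = 0.0221 by limma), and it fell out of the calls without normal diet mouse 2, high fat diet mouse 2 or high fat diet mouse 4. It was 0.59 (adjusted p = 0.109 by limma) without normal diet mice 2 and 3, and 0.11 (adjusted p = 0.853 by limma) with the cerebellar marker level in the fit, so it was then no longer the largest. Ntm did not pass, with means of 99.6 ± 2.42 and 99.3 ± 5.29 FPKM (SD, n = 4).

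Nlgn1 encodes neuroligin 1, an adhesion protein of excitatory synapses. RP24-125L17.1, in its intron 5, had FPKM of 2.9, 1.8, 2.6 and 3.9 on the normal diet and 4.4, 5.3, 3.6 and 4.9 on the high fat diet. High fat diet mouse 3 lay below normal diet mouse 4, so the groups overlapped. Its log2 fold change was 0.72 ± 0.21 (SE, adjusted p = 0.0273 by limma), and 5 of the 8 fits that leave out 1 mouse did not call it. It was 0.41 without normal diet mice 2 and 3 and 0.39 with the cerebellar marker level in the fit (adjusted p = 0.133 and 0.485 by limma). Nlgn1 had a log2 fold change of 0.07 (adjusted p = 0.514 by limma).

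Anks1b encodes a scaffold protein of the postsynaptic density. RP23-58D1.2, a member of 3 exons in its intron 17, had FPKM of 1.8, 1.8, 1.6 and 1.9 on the normal diet and 2.9, 3.6, 2.6 and 3.1 on the high fat diet. The groups were well apart, and the log2 fold change was 0.74 ± 0.12 (SE, adjusted p = 0.00229 by limma). Anks1b had a log2 fold change of 0.09 (adjusted p = 0.141 by limma), and its FPKM ran from 104.6 to 118.4 over the 8 mice.

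Farp1 encodes a guanine nucleotide exchange factor that acts in dendrites. RP24-84B10.1, in its intron 13, had FPKM of 10.4, 8.8, 9.2 and 11.7 on the normal diet and 16, 17, 15.6 and 16.8 on the high fat diet. All high fat diet mice were higher, and this was the only member to pass in every alternative fit that was run, the one with the cerebellar markers included. The log2 fold change was 0.71 ± 0.09 (SE, adjusted p = 0.000895 by limma). Farp1 rose as well, from 12.5, 11.3, 12 and 14.1 to 17, 18.2, 18.5 and 16.8, by a log2 fold change of 0.50 (adjusted p = 0.00146 by limma). The member stood at 80.2% of the host's FPKM in the normal diet mice and at 93.0% in the high fat diet mice, again without overlap.

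Limk2 encodes a kinase that inactivates the actin-severing protein cofilin. RP23-17N7.3, in its intron 7, had FPKM of 0.8, 0.6, 1.1 and 0.8 on the normal diet and 1.8, 1.3, 1.3 and 1.6 on the high fat diet. The groups did not overlap, and the log2 fold change was 0.80 ± 0.20 (SE, adjusted p = 0.0136 by limma). Limk2 rose by a log2 fold change of 0.28 (adjusted p = 0.00297 by limma).

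Lmo4 encodes a transcriptional cofactor with LIM domains. RP23-461P7.1, in its intron 2, had FPKM of 1.6, 1.3, 1.0 and 1.7 on the normal diet and 2.5, 3.1, 3.1 and 3.0 on the high fat diet. The groups did not overlap, and its log2 fold change was 1.03 ± 0.17 (SE, adjusted p = 0.00231 by limma), or 0.63 with the cerebellar marker level in the fit (adjusted p = 0.114 by limma). Lmo4 itself had 87.3, 63.4, 57.8 and 82.5 FPKM on the normal diet and 86.5, 90.6, 109.1 and 92.7 on the high fat diet, where the values overlapped. Its log2 fold change was 0.40 (adjusted p = 0.0441 by limma) and turned to −0.04 with the cerebellar marker level in the fit. Normal diet mice 2 and 3 were the lowest in host and member alike.

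Xkr4 belongs to the Xk-related family, which scrambles membrane lipids. RP23-122M2.3, in its intron 1, had FPKM of 1.6, 1.3, 1.2 and 1.2 on the normal diet and 2.0, 2.6, 2.4 and 2.5 on the high fat diet. The groups did not overlap, and the log2 fold change was 0.80 ± 0.14 (SE, adjusted p = 0.00293 by limma), against 0.22 for Xkr4 (adjusted p = 0.023 by limma). With the cerebellar marker level in the fit these were 0.59 and 0.04 (adjusted p = 0.121 and 0.738 by limma).

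AC102296.1 lies in an intron of 1244595 bases of Gm37240, the longest intron around a member, and this host was not among the measured genes. FPKM of the member was 0.7, 0.8, 0.7 and 0.8 on the normal diet and 0.9, 1.3, 1.2 and 1.8 on the high fat diet. The highest normal and the lowest high fat diet value were 1 rounding step apart. Its log2 fold change was 0.68 ± 0.21 (SE, adjusted p = 0.0306 by limma), and it was called in 2 of the 8 fits that leave out 1 mouse.

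**Figure D2:**
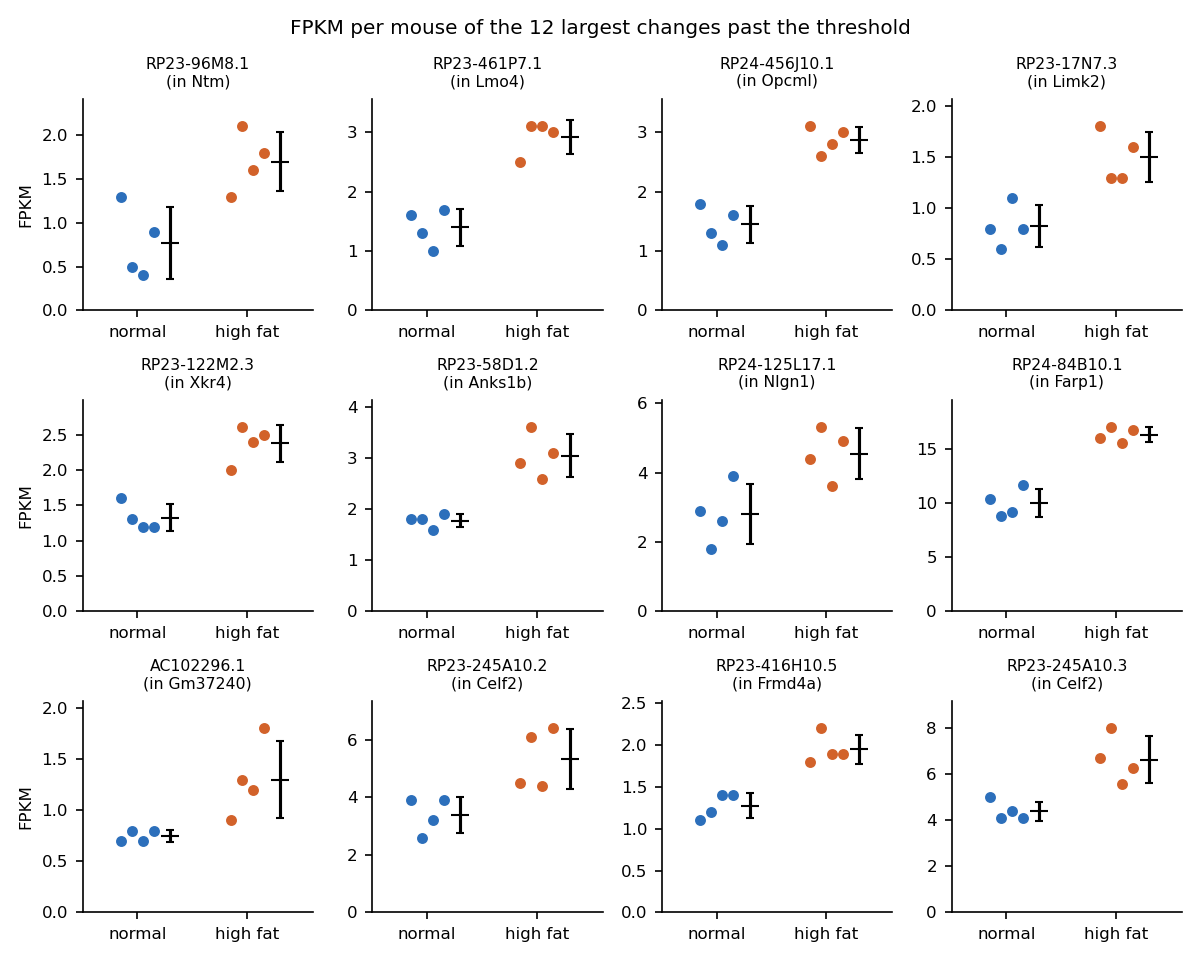
FPKM per mouse (points; blue, normal diet; orange, high fat diet) of the 12 members with the largest log2 fold changes among those past the threshold, each with the host gene in brackets. Black bars give mean ± SD (n = 4), and only the members in Ntm and Nlgn1 overlap between the diets.

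Celf2 encodes a regulator of splicing and mRNA stability, and its intron 3 holds 2 members. RP23-245A10.3 had FPKM of 5.0, 4.1, 4.4 and 4.1 on the normal diet and 6.7, 8.0, 5.6 and 6.3 on the high fat diet. RP23-245A10.2 had 3.9, 2.6, 3.2 and 3.9, and then 4.5, 6.1, 4.4 and 6.4. Neither overlapped between diets, and the log2 fold changes were 0.58 ± 0.11 and 0.64 ± 0.17 (SE, adjusted p = 0.00508 and 0.017 by limma). The first overlaps an exon of Gm37340 on the other strand. Celf2 rose from 47.1 ± 7.99 to 65.8 ± 3.26 FPKM (SD, n = 4), a log2 fold change of 0.50 (adjusted p = 0.008 by limma). With the cerebellar marker level in the fit, RP23-245A10.2 had 0.35 and Celf2 0.24 (adjusted p = 0.413 and 0.327 by limma). Relative to Celf2 both members overlapped between diets, at 9.51% and 10.2% for the first and 7.20% and 8.13% for the second.

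Ptbp2 encodes the neuronal polypyrimidine tract binding protein, a splicing repressor. ENSMUSG00000106099.1, the member in its intron 7, had FPKM of 2.4, 2.5, 2.6 and 2.7 on the normal diet and 3.7, 3.7, 3.4 and 3.5 on the high fat diet. These values varied little within a diet and did not overlap. The log2 fold change was 0.47 ± 0.08 (SE, adjusted p = 0.00297 by limma). Ptbp2 went the other way without passing, from 33.9 ± 1.58 to 30.02 ± 2.61 FPKM (SD, n = 4), with a log2 fold change of −0.18 (adjusted p = 0.0635 by limma). The member rose from 7.52% to 11.96% of the host's FPKM.

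Frmd4a encodes a scaffold protein of cell polarity with a FERM domain. Its intron 2, of 412616 bases in the longest coding model, held 5 members, more than any other host, and all 5 rose. The first of them along the gene, RP23-74F20.2, starts 73 kb from the annotated start of Frmd4a and had FPKM of 1.2, 1.2, 1.5 and 1.3 on the normal diet and 1.8, 1.9, 1.7 and 1.9 on the high fat diet. RP23-74F20.3, at 86 kb, had 1.5, 1.3, 1.4 and 1.4, and then 2.0, 2.2, 1.7 and 1.9. The next, RP23-416H10.5, at 121 kb, had 1.1, 1.2, 1.4 and 1.4, and then 1.8, 2.2, 1.9 and 1.9. In none of these 3 did the diets overlap.

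RP23-416H10.6, at 160 kb, had FPKM of 0.9, 0.9, 1.2 and 1.1 on the normal diet and 1.5, 1.9, 1.4 and 1.3 on the high fat diet. The last, RP23-416H10.7, at 199 kb, had 0.9, 0.6, 0.9 and 0.9, and then 1.0, 1.2, 1.4 and 1.4. Again the diets did not overlap, although in each of these members the groups were only 1 rounding step apart. The log2 fold changes of the 5, in order along the gene, were 0.46, 0.45, 0.58, 0.53 and 0.55, with adjusted p from 0.009 to 0.0479 by limma. RP23-416H10.5 passed in each of the 8 fits that leave out 1 mouse, RP23-74F20.2 in 7, RP23-74F20.3 in 5, RP23-416H10.6 in 3 and RP23-416H10.7 in 1. The 5 share a strand and an intron of the longest coding model, and are not independent of one another. Other annotated models of Frmd4a have exons between them, 10235 bases after RP23-416H10.5 and 6684 bases before RP23-416H10.6. RP23-416H10.5 also lies within Gm13189, a second gene on the same strand, which was not among the measured genes. On the other strand, RP23-416H10.5 overlaps an exon of 1700080N15Rik.

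Frmd4a had FPKM of 7.9, 8.6, 8.6 and 7.7 on the normal diet and 7.3, 7.6, 7.6 and 7.3 on the high fat diet. Each high fat diet value was below each normal diet value, but the difference did not pass, with a log2 fold change of −0.14 ± 0.06 (SE, adjusted p = 0.106 by limma). The 5 members rose against the host, from between 10.1% and 17.1% of its FPKM on the normal diet to between 16.8% and 26.2% on the high fat diet. For each of the 5 this ratio did not overlap between the diets.

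**Figure D3:**
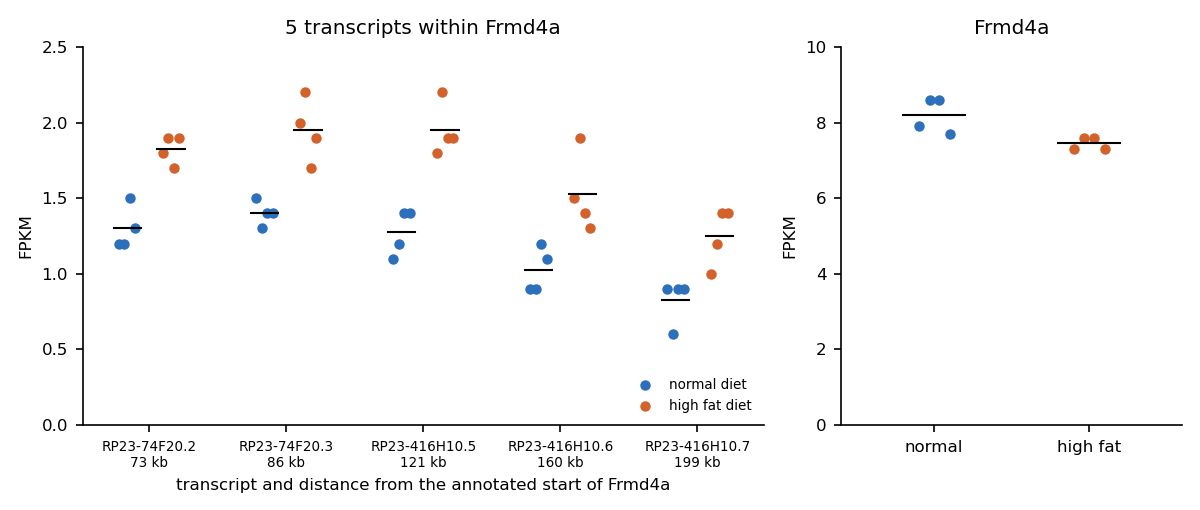
FPKM per mouse of the 5 sense intronic transcripts in intron 2 of Frmd4a (left, with the distance in kb from the annotated start of Frmd4a) and of Frmd4a itself (right) on the normal diet (blue) and the high fat diet (orange), with black lines at the means (n = 4). The members are higher on the high fat diet without overlap, and Frmd4a lies slightly lower.

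Man1a2, which encodes a mannosidase of the Golgi apparatus, and Lrig2, a transmembrane protein with leucine-rich repeats, hold 2 members each. In Man1a2, RP23-267O21.3 had FPKM of 1.3, 1.2, 1.4 and 1.5 on the normal diet and 1.7, 1.8, 1.8 and 1.7 on the high fat diet. Its log2 fold change was 0.36 ± 0.12 (SE, adjusted p = 0.0427 by limma), without overlap but with a call in only 1 of the 8 fits that leave out a mouse. The other Man1a2 member, RP23-267O21.4, overlapped between diets and had a log2 fold change of 0.39 (adjusted p = 0.096 by limma). In Lrig2, RP23-357D17.3 had a log2 fold change of 0.57 (adjusted p = 0.0341 by limma) and was called in 2 of the 8 fits. The log2 fold change of RP23-38L11.4, also in Lrig2, was 0.33 (adjusted p = 0.296 by limma). Neither host passed.

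The member with the highest level did not pass. Peg13, in intron 16 of Trappc9, had FPKM of 51.3, 52.9, 52.3 and 55.2 on the normal diet and 58.0, 58.7, 67.1 and 54.2 on the high fat diet. High fat diet mouse 4 lay below normal diet mouse 4, and the log2 fold change was 0.16 with a 95% interval of 0.02 to 0.31 (adjusted p = 0.0726 by limma). Trappc9, a subunit of a vesicle tethering complex, rose from 20.7 ± 1.12 to 26.6 ± 0.74 FPKM (SD, n = 4), a log2 fold change of 0.36 (adjusted p = 0.00131 by limma). Peg13 had 257% of the FPKM of its host in the normal diet mice and 224% in the others, with overlap.

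RP23-239H14.1, in Map6, which encodes a microtubule stabilising protein, had 2.90 ± 0.77 and 3.5 ± 0.54 FPKM (SD, n = 4), and RP23-116A10.3, in Sergef, had 4.42 ± 0.44 and 4.70 ± 0.24. Both overlapped between diets. Their log2 fold changes were 0.28 and 0.09 (adjusted p = 0.244 and 0.452 by limma). Map6 passed with a log2 fold change of 0.26, and Sergef did not, with 0.12. The values of RP23-116A10.3 include bases that Sergef mRNA also has.

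The 3 tested members with log2 fold changes nearest to 0 were RP23-90A8.2 in Uchl5, a deubiquitinase of the proteasome, RP23-393I12.5 in the noncoding gene Gm4258 and RP23-157O10.8 in Srcin1. RP23-90A8.2 had 2.38 ± 0.28 and 2.38 ± 0.30 FPKM (SD, n = 4), and its 95% interval ran from −0.28 to 0.27. RP23-393I12.5 had 2.02 ± 0.17 and 2.02 ± 0.29 FPKM, with an interval of −0.29 to 0.28. For these 2, a change of the 0.49 that a 40% rise makes on the log2 scale lay outside the interval. RP23-157O10.8 had FPKM of 2.6, 1.9, 3.2 and 2.9 on the normal diet and 2.7, 3.2, 2.9 and 1.9 on the high fat diet, a log2 fold change of 0.01 with an interval of −0.42 to 0.44. Srcin1, whose product inhibits the kinase Src, rose at the same time from 27.2 ± 2.23 to 42.6 ± 2.93 FPKM (SD, n = 4), a log2 fold change of 0.64 (adjusted p = 0.000695 by limma). This was the only pair in which the ratio of member to host was lower on the high fat diet without overlap, at 9.70% and 6.23%.

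The other members that did not pass had log2 fold changes from −0.45 to 0.88. Their intervals were wide. The median half-width of the 95% interval was 0.41 over the tested members and 0.19 over all genes, and 31 of the 41 members that did not pass had an interval reaching above 0.49. Several members were chosen for description here after their values were seen. RP23-467L21.2 in Upp2, a uridine phosphorylase, had the largest log2 fold change among those that did not pass, 0.88, and its FPKM ran from 0.3 to 1.2 on the normal diet and from 0.8 to 1.8 on the high fat diet. RP23-448A11.16 in Usp4, a deubiquitinase, had 0.79 (adjusted p = 0.0504 by limma), just outside the threshold. Just inside it was RP23-416H10.7 in Frmd4a, with 0.0479 by limma.

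RP23-225M12.1 in Hs2st1, a heparan sulfate sulfotransferase, had FPKM of 1.3, 1.4, 0.6 and 1.3 on the normal diet and 1.6, 1.6, 2.2 and 1.8 on the high fat diet. It did not overlap between diets, yet its adjusted p was 0.0671 by limma with a log2 fold change of 0.65. At the lower end, ENSMUSG00000112103.1, the member in Grik2, which encodes a kainate receptor subunit, had FPKM of 0.6, 1.6, 1.4 and 1.3 on the normal diet and 0.9, 0.8, 0.7 and 0.9 on the high fat diet. Its log2 fold change was −0.45 (adjusted p = 0.228 by limma), and Grik2 fell with −0.30 (adjusted p = 0.0207 by limma). Without normal diet mouse 1, the lowest of its diet, this member fell by limma, with −0.73 (adjusted p = 0.0146).

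Hosts were compared with their members in 58 pairs, of which 57 had a tested member. Of the 50 hosts, 14 rose, 5 fell and 31 did not pass, with a median log2 fold change of 0.07. The 19 hosts called either way stand beside 33.1% of all genes. The member's log2 fold change was above that of its host in 46 of 57 pairs, and the median difference was 0.33. Measured as a share of the host's FPKM, the median over pairs was 7.36% in normal diet mice against 8.85% in high fat diet mice. This share was higher on the high fat diet without overlap in 18 pairs, lower in 1 and overlapping in 39. Among the 18 members that passed and had a measured host, the host rose in 6, fell in 0 and did not pass in 12. The ratio rose without overlap in 13 of these 18, which choosing members by their rise favours.

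Conversely, 14 members that did not pass lay in a host that did, 9 of which rose and 5 of which fell. The largest fall of a host was that of Rap1a, a small GTPase, which had 16.4, 18.1, 17.1 and 14.8 FPKM on the normal diet and 10.9, 10.6, 10.4 and 11.1 on the high fat diet. Its log2 fold change was −0.62 (adjusted p = 0.000608 by limma), while RP24-500I24.4 within it had 0.05 and overlapped between diets. Over the 57 pairs, the log2 fold changes of member and host had a Pearson r of 0.28 and a Spearman correlation of 0.27, and the latter was 0.29 with 1 point for each of 49 hosts. These describe the points and carry no test, since the values come from the same 8 mice and several members share a host.

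**Figure D4:**
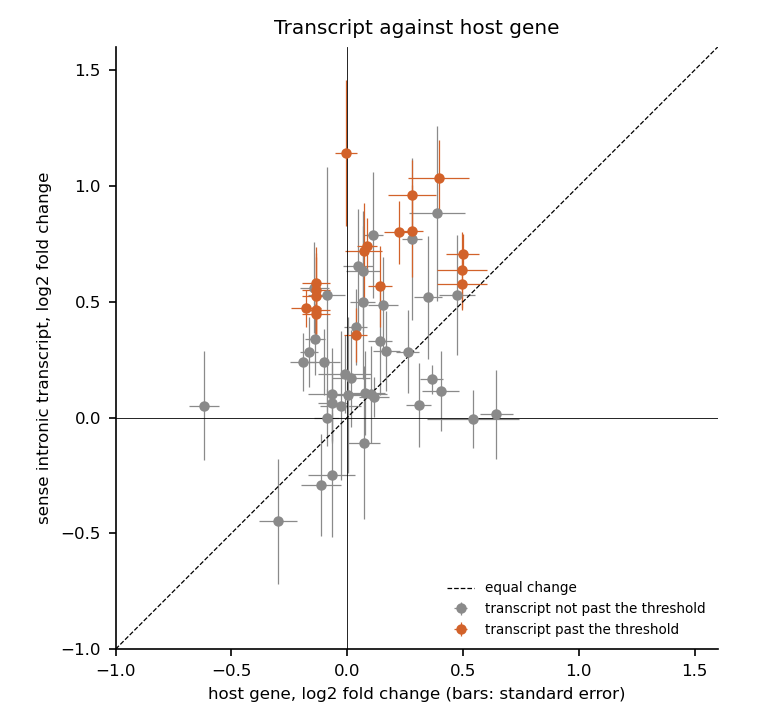
Log2 fold change (high fat diet over normal diet) of each sense intronic transcript against that of its host gene for 57 pairs, with standard errors from limma as bars and the dashed line at equal change. Members past the threshold (orange), which were chosen by their rise, all lie above the line, over hosts from −0.18 to 0.50.

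The length of the host intron was one feature that the choice of members did not use. Of 19 tested members in introns of over 100 kb, 13 passed, and of 36 in shorter introns, 5 passed. Of all genes tested, 17.7% were called higher, and of low genes, those under a mean FPKM of 3, 14.8%. Frmd4a supplied 5 of the 13, and outside it 8 of 14 passed, so that the 13 lay in 8 hosts. Over 55 members with an intron length, the Spearman correlation between intron length and log2 fold change was 0.33, and it was 0.29 over the 50 outside Frmd4a. The members in long introns have lower levels, with a median mean FPKM of 1.32 in introns above the median length and 1.72 in those up to it. Lengths were read from the longest coding model of each host, and other models can have exons nearer to a member. RP23-245A10.3, in a Celf2 intron of 240765 bases, had host exons 10698 bases upstream and 65456 bases downstream. The counts rest on that choice of model, and no other was tried. The limit of 100 kb was chosen with the values known, so the counts are a description.

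**Figure D5:**
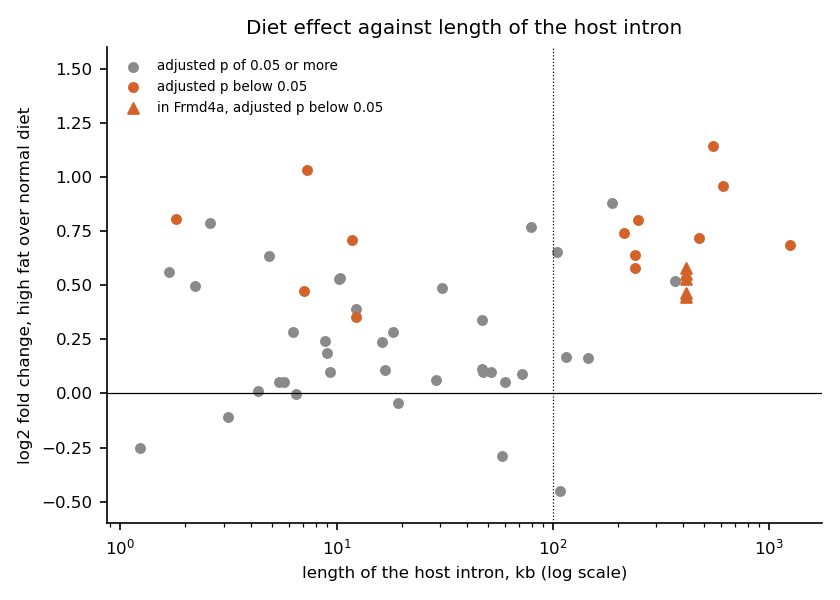
Log2 fold change of 55 sense intronic transcripts against the length of the host intron in the longest coding model, in kb (log scale). Members past the threshold are in orange and those in Frmd4a are triangles. Right of the dotted line at 100 kb, 13 of 19 members are past the threshold, and left of it 5 of 36. Of all genes tested, 17.7% were called higher.

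The number of exons was another such feature. Of 37 tested members with 1 exon, 11 passed, with a median log2 fold change of 0.33. Of 23 with 2 or 3 exons, 8 passed, with a median of 0.63. The share of all genes called higher was 17.7%. Since spliced members do not differ from their host intron at exonic bases, the FPKM of either kind can include unspliced host RNA. Sequence shared between members was limited. A stretch of 30 bases or more on either strand was shared by 15 of the 61 members with another member, and the highest share was 12.5% of RP23-74N13.1, in 73 bases it has in common with RP24-374B14.6. Neither of these passed, and reads in such stretches may be split between copies.

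Genes that act on introns and nuclear RNA were on average slightly lower on the high fat diet. Of 28 tested genes for lariat debranching, spliceosome release and the nuclear exosome, 2 rose, 4 fell and 22 did not pass, with a median log2 fold change of −0.04. The share that fell, 14.3%, was near the 15.3% of all genes called lower. The share that rose was 7.14%, against 17.7% of all genes. Rbm7, a subunit of the complex that brings nuclear RNA to the exosome, fell from 16.6 ± 0.66 to 12.4 ± 0.83 FPKM (SD, n = 4), a log2 fold change of −0.42 (adjusted p = 0.00144 by limma). The RNA helicase Skiv2l2 of the same machinery fell with −0.21, and C1d, a cofactor of the exosome, with −0.34. Dhx15, the helicase that releases the intron lariat from the spliceosome, fell with −0.29 (adjusted p = 0.00382 by limma), and Tfip11, which acts with it, rose with 0.15. Zcchc7, a zinc finger protein of the nuclear exosome pathway, rose with 0.36. Dbr1, which opens the lariat, had 6.25 ± 0.39 and 5.53 ± 0.35 FPKM (SD, n = 4), a log2 fold change of −0.18 that did not pass (adjusted p = 0.0902 by limma).

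Another list held 13 measured RNAs compiled as nuclear or imprinted long noncoding RNAs, Peg13 included. It is not uniform, as Snhg11 and Tunar are classed as protein coding in the table and Gas5 RNA is also abundant in the cytoplasm. Of the 13, 6 rose and 0 fell, with a median log2 fold change of 0.28, where 17.7% of all genes were called higher and 15.3% lower. Meg3, an imprinted RNA, rose from 293.1 ± 11.5 to 414.3 ± 22.3 FPKM (SD, n = 4), a log2 fold change of 0.50 (adjusted p = 0.000713 by limma). Miat had 0.69, Snhg11 0.63, Snhg14 0.50, Kcnq1ot1 0.35 and Rian 0.28, all past the threshold. Neat1, the scaffold of paraspeckles, overlapped between diets and did not pass, with 0.35 (adjusted p = 0.0861 by limma). Of the list, 10 RNAs lay above 0 and 3 below. Those below were Tunar with −0.62, Airn with −0.59 and Pantr1 with −0.08. None of them passed (adjusted p = 0.0814, 0.313 and 0.655 by limma). The mean log2 level of this list differed between the diets by 0.18, and the list of intron and nuclear RNA genes by −0.04 (exact two-sided permutation p = 0.0286 for each, the smallest that 4 against 4 mice allow, and 0.0381 after adjustment over 12 lists).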

How the data were processed

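FPKM values per gene were deposited for the cortex of 8 mice, 4 per diet, with 1 library each. The authors depleted rRNA, made stranded paired-end libraries, used Trimmomatic for trimming and STAR for alignment to mm10, and made FPKM with Cuffnorm on GENCODE M17. They state a filter on genes with a mean FPKM under 1 or a value of 0, but 14 rows of the deposited values fall outside it as rounded. Tool versions and the strand setting of the quantification were not given in the sources used here. FPKM is rounded to 0.1 and its depth is unknown, so precision comes from the 4 mice per diet only.

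From these values, log2(FPKM + 0.1) was compared between diets in limma (version 3.58.1, R 4.3.3), using a two-sided test, a trended variance and the Benjamini-Hochberg method across 13982 genes (mean FPKM of at least 1, no 0). The unit was FPKM, so no count model was used. The fit was tested on simulated data.

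Hosts, coordinates and transcript sequences come from GENCODE M21 on GRCm38, later than the authors' M17. M21 held 13977 of the 13996 genes and all 61 members, so some models may differ from those quantified. A host is a gene on the same strand that spans the member. The 20 bases beyond each 3′ end were not used here, and the last 20 bases of the transcript were searched in their place.

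The members and the 12 gene lists were chosen with earlier results of these data known. Named members are the 12 with the largest log2 fold change among those past the threshold, the 8 with the highest mean FPKM, the 3 nearest to 0 and any left out by the filter, each with its host. Others are said to be chosen later. Lists were compared by the mean log2 level per mouse with an exact permutation test. The alternatives tried were quantile normalization, median-ratio rescaling, an added constant of 1, no filter and a higher one, a variance without trend, a replicate block, the cerebellar marker level as a covariate, another choice of host, each mouse left out, and, added after seeing the data, normal diet mice 2 and 3 left out. Same-numbered mice of the 2 diets did not deviate together over the tested genes. Whether they were handled together is not given. The Salmon values and circRNAs of the study were not used here. Python 3.11.15, pandas 2.3.3, scipy 1.17.1 and matplotlib 3.10.9 were used for the other steps.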

Additional observations from a re-analysis of the deposited data

Results flagged for a closer look

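Of 92 groups of 4 mice (46 named genes in 2 diets) examined for a mouse standing apart, 3 were found, and chance gives about 1 in 20. For RP23-461P7.1 in Lmo4, high fat diet mouse 1 had 2.5 FPKM where the others had 3.0 to 3.1. For Limk2, the host of RP23-17N7.3, the same mouse had 38.8 FPKM where the others had 34.6 to 35.3. For RP23-416H10.7 in Frmd4a, normal diet mouse 2 had 0.6 FPKM where the others had 0.9 each.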

How the results depend on the processing

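The count of 19 members past the threshold became 8 with a mean FPKM of at least 2, which leaves fewer members to test, 1 with the cerebellar marker covariate and 11 without normal diet mice 2 and 3. With each mouse left out it ranged from 10 to 18, and the 18 without normal diet mouse 1 were 17 higher and 1 lower. The count of 15 with a 40% change became 9 with an added constant of 1, 1 with the covariate and 7 where a mean FPKM of 2 was required, and it ranged from 9 to 17 with a mouse left out. The count of 19 hosts became 5 with the covariate and ranged from 14 to 19 with a mouse left out. The median log2 fold change of 0.37 became 0.47 at a mean FPKM of at least 2 and 0.24 with an added constant of 1, and ranged from 0.31 to 0.42 with a mouse left out. Except where the alternative itself tests fewer members or mice, the cause was not tested.

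With the replicate number as a block, 13 members passed, 12 with a 40% change, and 14 hosts. Same-numbered mice had correlations of −0.11 to −0.03, and 0 correlated best with their own number. The labels give no pairing beyond the number. These correlations cannot show whether same-numbered mice were handled together.

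Some log2 fold changes that had not passed, and that of the host Lmo4, reversed. With the cerebellar covariate they were −0.08 for RP23-239H14.1, 0.07 for RP23-90A8.2, −0.04 for RP23-157O10.8, −0.005 for Opcml, −0.04 for Lmo4, −0.004 for Magi3, 0.01 for Ntm, −0.17 for Nlgn1 and −0.05 for Man1a2. Without normal diet mice 2 and 3 they were 0.01 for RP23-393I12.5, RP23-90A8.2 and Ntm, −0.06 for RP23-157O10.8 and Nlgn1, −0.004 for Magi3 and −0.02 for Man1a2. With quantile normalization they were −0.03 for RP23-157O10.8 and 0.003 for Ntm. With a mouse left out, RP23-393I12.5 ranged from −0.09 to 0.07, RP23-90A8.2 from −0.08 to 0.06, RP23-157O10.8 from −0.13 to 0.16 and Ntm from −0.02 to 0.03. Over single genes, 613 values kept direction and side of the threshold, 103 lost the threshold, 7 gained it and 31 reversed.

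Levels near 1 FPKM rounded to 0.1, with 4 mice a diet and no read counts, limit what can be shown for most members. The 95% interval of the median member reached about 0.41 on the log2 scale to either side of its estimate. Unspliced host RNA, later gene models and RNA of other brain regions cannot be told apart from the members' own RNA in these values.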
